A study of Mus musculus with 2 samples.

Results

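The miR-106a/miR-363 cluster on chromosome X and the miR-106b/miR-25 cluster on chromosome 5 are the paralogs of the miR-17/miR-92 cluster on chromosome 14. Their 9 genes were selected by symbol in the GENCODE mouse annotation: Mir106a, Mir18b, Mir20b, Mir19b-2, Mir92-2 and Mir363 on chromosome X, and Mir106b, Mir93 and Mir25 on chromosome 5. All 9 have a row among the 1973 miRNA genes of each table. The samples are whole intestine of healthy B6NCrl mouse embryos at 16.5 days, male and female together, with no treatment or genetic change named in the labels. There is 1 group of 2 biological replicates, each a library of RNA under 30 nucleotides made from pooled tissue, 41 embryos in replicate 2 and a number not given in the labels for replicate 1. The design therefore allows comparisons among genes and between replicates, but none between conditions. Pooling whole intestine mixes epithelium, muscle, vessels, nerves and blood, so that fewer cells of a type and less RNA per cell cannot be told apart.

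MicroRNAs are cut from hairpins in longer transcripts and guide Argonaute proteins to messenger RNAs, mainly through the seed, bases 2 to 8 of the mature miRNA. Genes that share a seed are expected to share many targets. The miR-17/miR-92 cluster and its paralogs arose by duplication and are known from proliferating and embryonic cells, where they repress inhibitors of the cell cycle, such as p21, and promoters of cell death, such as Bim. In mice the loss of miR-17/miR-92 is lethal around birth, whereas mice without either paralog cluster are viable, and the loss of miR-106b/miR-25 together with miR-17/miR-92 is lethal in the embryo. Mcm7, the host gene of miR-106b/miR-25, encodes a subunit of the helicase that starts DNA replication.

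The mature sequences show which genes can act alike and which can be told apart by reads. They come from RefSeq on GRCm38.p6, the same assembly as mm10, which holds a mature sequence for each of the 9 genes. The arm known as the guide strand of each family is given, 5′ to 3′, with the seed in capitals. In the miR-17 seed group (AAAGUGC) the paralogs contribute 4 genes, given here with their 2 relatives from miR-17/miR-92.
miR-106a-5p: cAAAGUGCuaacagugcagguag
miR-20b-5p: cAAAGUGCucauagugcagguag
miR-106b-5p: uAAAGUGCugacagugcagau
miR-93-5p: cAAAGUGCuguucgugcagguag
miR-17-5p: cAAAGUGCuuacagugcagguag
miR-20a-5p: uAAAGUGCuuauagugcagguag

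The miR-18 seed group (AAGGUGC) has 1 gene in miR-106a/miR-363 and 1 in miR-17/miR-92, and the miR-19 seed group (GUGCAAA) has 1 and 2. The mature miR-19b-3p is made from both Mir19b-2 and Mir19b-1.
miR-18b-5p: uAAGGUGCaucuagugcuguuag
miR-18a-5p: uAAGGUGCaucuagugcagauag
miR-19b-3p: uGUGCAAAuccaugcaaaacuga
miR-19a-3p: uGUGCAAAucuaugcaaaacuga

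The miR-92 seed group (AUUGCAC) has 3 genes in the paralogs. The mature miR-92a-3p is made from both Mir92-2 and Mir92-1.
miR-92a-3p: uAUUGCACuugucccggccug
miR-363-3p: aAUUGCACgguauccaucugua
miR-25-3p: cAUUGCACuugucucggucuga

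Counted from 1 at the 5′ end, with the miR-17/miR-92 base first, miR-106a-5p differs from miR-17-5p by U10A alone. For miR-20b-5p the differences from miR-20a-5p are U1C and U10C, for miR-18b-5p from miR-18a-5p A18U and A20U, and for miR-93-5p from miR-17-5p U10G, A11U, C12U and A13C. Each of these lies outside the seed. Over their first 21 bases, miR-106b-5p and miR-17-5p differ at 3 positions, and miR-363-3p and miR-92a-3p at 11, so miR-363-3p shares little with miR-92a-3p beyond the seed. The longest stretch that a member hairpin shares with any other RefSeq hairpin was 12 to 17 bases for 7 of the 9 genes. It was 22 bases for Mir92-2, shared with Mir92-1, and 25 bases for Mir19b-2, shared with Mir19b-1. Reads of the 2 genes with an identical mature copy can map to more than 1 locus. Multimapping reads of any origin, 26.2% and 25.7% of all reads in replicates 1 and 2, are outside every gene count. The counts of Mir92-2 and Mir19b-2, and of their copies Mir92-1 and Mir19b-1, therefore hold only reads placed at 1 locus. Reads placed at the wrong copy cannot be told from these counts, so these levels may be too low or too high.

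On mm10, miR-106a/miR-363 spans 875 bases on the minus strand of chromosome X (52741693 to 52742567), and miR-106b/miR-25 spans 498 bases on the minus strand of chromosome 5 (138165321 to 138165818). In the direction of transcription the order is Mir106a, Mir18b, Mir20b, Mir19b-2, Mir92-2 and Mir363 on chromosome X, with 46 to 138 bases between hairpins, and Mir106b, Mir93 and Mir25 on chromosome 5, with 126 and 118 bases between them. All 3 hairpins of miR-106b/miR-25 lie in intron 13 of the coding Mcm7 transcript with 15 exons. Mir93 and Mir25 also lie in the first exon of a noncoding Mcm7 transcript with a retained intron. The first 5 bases of the Mir106a hairpin overlap the last exon of the long noncoding RNA Kis2, and the other 5 hairpins on chromosome X lie outside its annotated transcripts.

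The libraries had 8747512 (replicate 1) and 10876035 reads (replicate 2). Sense reads in miRNA genes came to 4261976 and 5680764. Levels are given as CPM, the count of a gene scaled to a fixed total of these counts, not divided by hairpin length, with the mean ± SD of the 2 libraries. Intervals are exact Clopper-Pearson 95% intervals within 1 library and leave out all error but that of counting. The labels name no molecular identifiers that would mark PCR duplicates, so the counts may include duplicates. The labelled tissue matched its markers: all 10 epithelial miRNAs listed were detected (Mir192, Mir194-1, Mir194-2, Mir215, Mir375 and the miR-200 family), holding 10.8% and 12.3% of the counts in replicates 1 and 2, and the smooth muscle genes Mir143 and Mir145a held 18.0% and 17.3%. The endothelial Mir126a held 3.08% and 3.36%, 5 blood miRNAs 0.149% and 0.129%, the liver Mir122 0.0994% and 0.0448%, 6 neural genes, 2 of them detected in both libraries, 0.143% and 0.167%, 4 striated muscle genes 0.00974% and 0.0120%, and 5 genes of pluripotent cells, 4 of them detected in both, 0.0112% and 0.00973%. Mir124a-2, Mir124a-3, Mir9-2 and Mir367 had 0 counts in both libraries. Reads that map to several loci are outside these counts, so a 0 need not mean that the miRNA was absent.

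The miR-106b/miR-25 genes made up most of the paralog counts. Mir93, which carries the miR-17 seed, stood at 7866 CPM in replicate 1 and 7380 CPM in replicate 2, or 7623 ± 344 CPM (n = 2), rank 27 of all genes. Mir106b, with the same seed, stood at 5116 and 4981 CPM, or 5049 ± 95 CPM, rank 37. Mir25, which carries the miR-92 seed, was far lower, at 440 and 429 CPM, or 434 ± 7.45 CPM, rank 124. The counting intervals were narrow at these depths: 7782 to 7950 CPM for Mir93 and 420 to 460 CPM for Mir25 in replicate 1. Mir93 was 1.51 ± 0.0397 times Mir106b and 17.5 ± 0.491 times Mir25 in counts of the same library, with the same order in both libraries. This spread is among hairpins of the same intron.

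Every gene of miR-106a/miR-363 was detected in both libraries, at a far lower level. Mir106a, first in the cluster and of the miR-17 seed group, was its most abundant gene, at 585 CPM in replicate 1 and 506 CPM in replicate 2, or 545 ± 56.0 CPM (n = 2). Mir363, last in the cluster and of the miR-92 seed group, followed at 494 and 474 CPM, or 484 ± 13.9 CPM. Mir20b, again with the miR-17 seed, stood at 443 and 410 CPM, or 426 ± 23.4 CPM. These 3 genes lay within a narrow band, from the first to the last hairpin of the cluster. Mir92-2, a source of miR-92a, stood at 214 and 146 CPM, or 180 ± 47.9 CPM. Mir18b reached only 42.0 and 34.2 CPM, or 38.1 ± 5.55 CPM. Mir19b-2 was lowest, at 3.75 and 7.92 CPM from 16 and 45 counts, or 5.84 ± 2.95 CPM. Its counting intervals, 2.15 to 6.10 CPM and 5.78 to 10.6 CPM, overlapped.

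**Figure D1:**
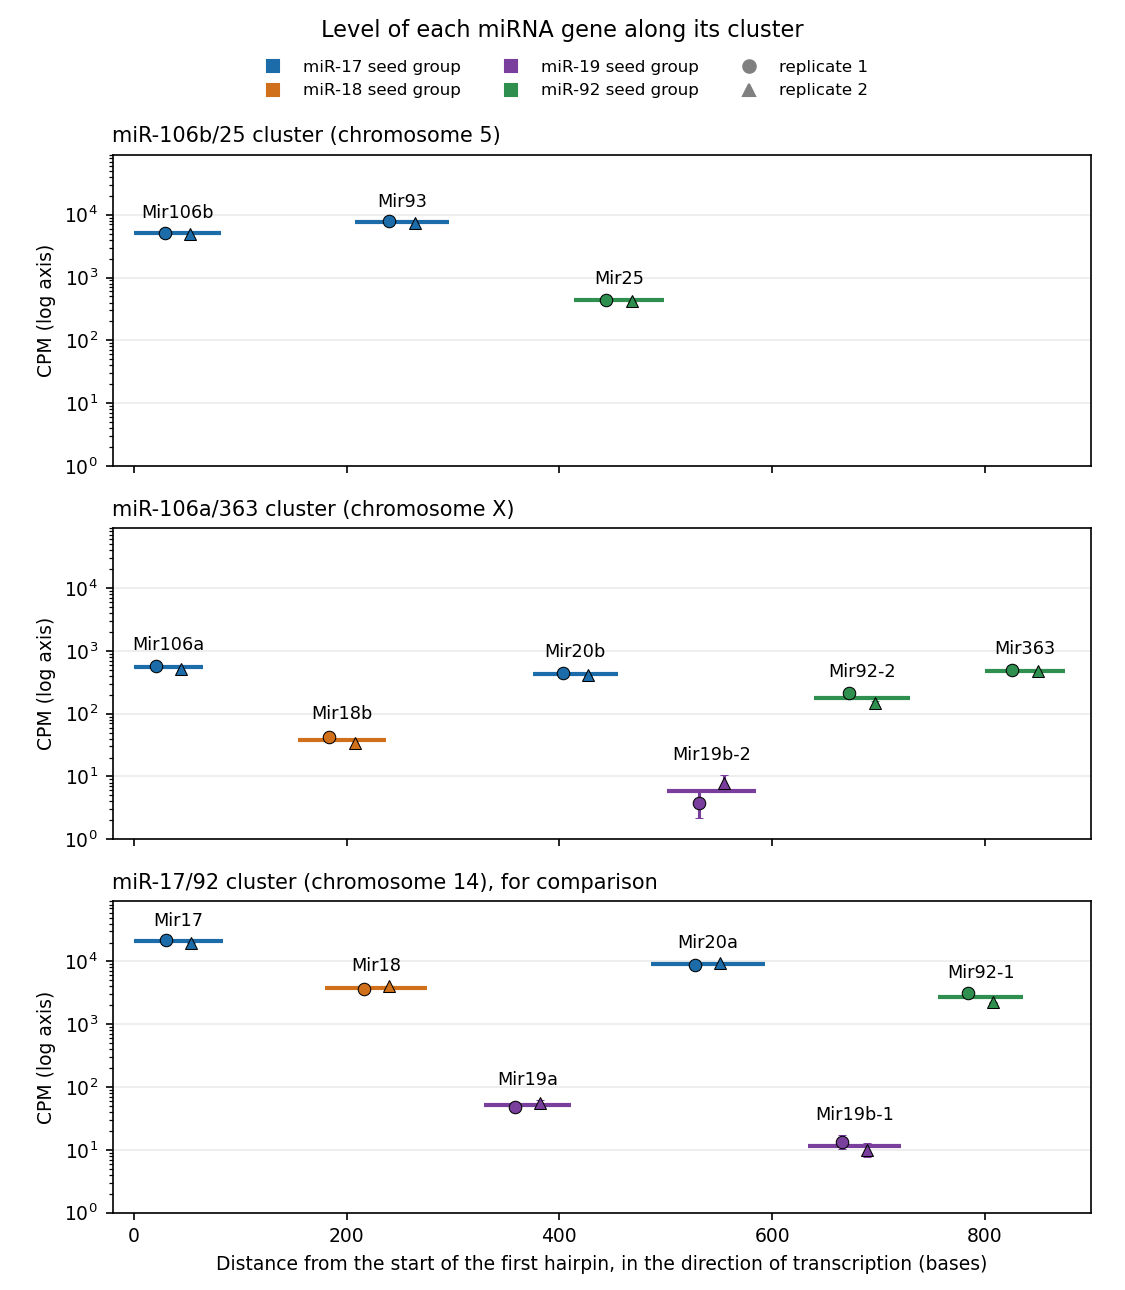
CPM on a log axis of each gene of the 3 clusters, placed by distance in bases along the cluster; the horizontal line spans the hairpin at the mean level, circles and triangles are replicates 1 and 2, and vertical bars are exact 95% counting intervals. Mir93 stands near Mir20a and below Mir17, and Mir106b stands below both. The chromosome X genes lie between 5.84 and 545 CPM, and genes of the miR-19 seed group are the lowest of both clusters that hold them.

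In order of mean level the 9 genes ran Mir93, Mir106b, Mir106a, Mir363, Mir25, Mir20b, Mir92-2, Mir18b and Mir19b-2, over a 1306-fold range of mean levels. That range was 2095-fold in replicate 1 and 932-fold in replicate 2. It rests on the 16 and 45 counts of Mir19b-2, which depend on read placement. Only 1 pair of neighbours in that order overlapped between libraries: Mir25 was 0.993 times Mir20b in replicate 1 and 1.05 times in replicate 2. Mir106a exceeded Mir363 by a factor of 1.13 ± 0.0834, and Mir363 exceeded Mir25 by 1.11 ± 0.0128, small steps that had the same sign in both libraries. The step from Mir106b to Mir106a, where the chromosome 5 pair gives way to the chromosome X genes, was 9.30 ± 0.781-fold. These ratios are of counts: how evenly the library preparation captured different sequences was not measured here. No member had a count on the opposite strand in either library.

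As a whole, miR-106b/miR-25 held 1.34% of the counts in replicate 1 (interval 1.33% to 1.35%) and 1.28% in replicate 2 (1.27% to 1.29%), or 1.31% ± 0.0446 (n = 2). The 6 genes of miR-106a/miR-363 held 0.178% (0.174% to 0.182%) and 0.158% (0.155% to 0.161%), or 0.168% ± 0.0144. In counts of the same library miR-106b/miR-25 was 7.54 times miR-106a/miR-363 in replicate 1 (interval 7.36 to 7.72) and 8.11 times in replicate 2 (7.93 to 8.29), or 7.82 ± 0.404 times, a gap far larger than the spread between the libraries. Mir92-2 and Mir19b-2 are counted only from reads that could be placed, and no miR-106b/miR-25 gene has an identical mature copy. This ratio therefore rests in part on read placement. With 2 libraries an exact two-sided sign-flip permutation test of a ratio against 1 cannot go below p = 0.5, so no p is given for this ratio or the ratios that follow.

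The miR-17/miR-92 cluster is the closest comparison. Its 6 genes held 3.73% and 3.56% of the counts. miR-106b/miR-25 amounted to 0.360 of miR-17/miR-92 in replicate 1 (interval 0.356 to 0.363) and 0.359 in replicate 2 (0.356 to 0.362), or 0.359 ± 0.000649. This SD is smaller than the counting intervals, so it does not show how steady the ratio is. miR-106a/miR-363 amounted to 0.0477 and 0.0443 of miR-17/miR-92, or 0.0460 ± 0.00246, so that miR-17/miR-92 had 21.8 ± 1.16 times its counts. With the 4 genes left out that have an identical mature copy in another cluster (Mir19b-1, Mir19b-2, Mir92-1 and Mir92-2), the share of miR-106b/miR-25 relative to miR-17/miR-92 was 0.388 ± 0.00737. That spread is wider than with all genes.

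Gene by gene, the gap between chromosome X and chromosome 14 was not one constant factor. Mir106a stood at 0.0269 of Mir17 in replicate 1 and 0.0254 in replicate 2, so Mir17 was 38.3 ± 1.61 times as abundant. Mir20a was 21.3 ± 2.19 times Mir20b, and Mir18 was 102 ± 23.3 times Mir18b. Mir92-1 was 15 ± 0.307 times Mir92-2, in reads placed at 1 locus only. These 4 gaps do not overlap between libraries, though the last rests on read placement and is not the same measure as the others. Reads of miR-106a-5p and miR-17-5p are told apart by the base at position 10 alone, and Mir106a counts amounted to 2.61% ± 0.110 of Mir17 counts. Mir19b-1 was 3.56 times Mir19b-2 in replicate 1 and 1.27 times in replicate 2, where the interval of 0.842 to 1.92 includes 1, so a difference was not detectable there at this depth.

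**Figure D2:**
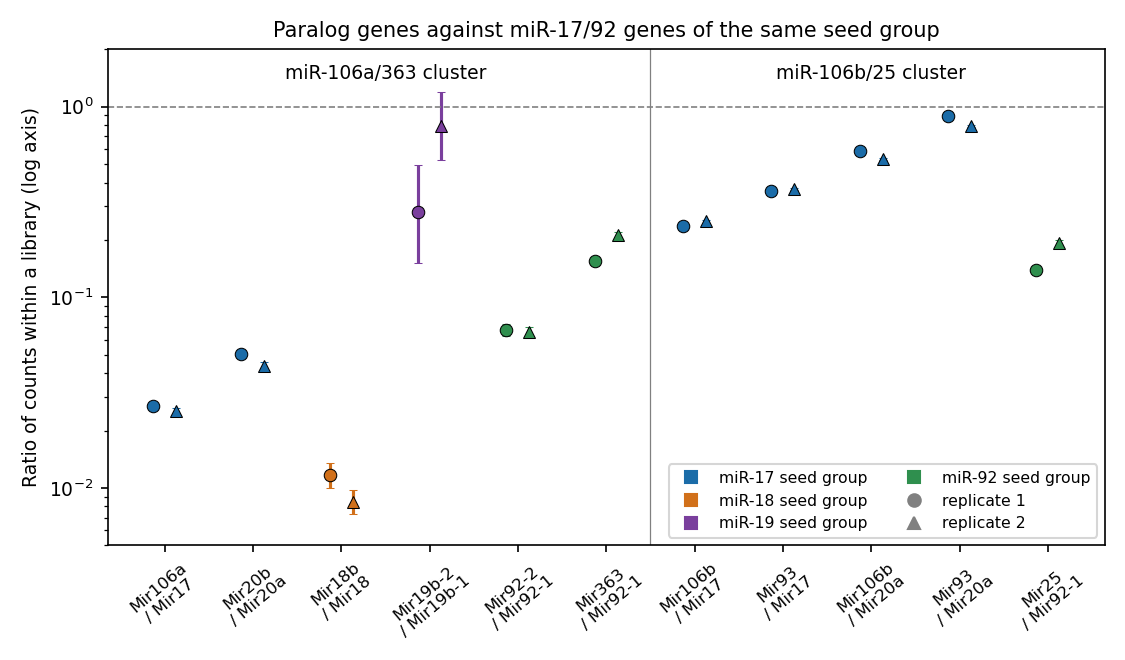
Ratio of counts within a library (log axis) of each paralog gene to a miR-17/miR-92 gene of its seed group; circles and triangles are replicates 1 and 2, bars are exact 95% counting intervals, and the dashed line marks equal counts. Mir18b to Mir18 is the lowest ratio, near 0.01, and Mir93 to Mir20a the highest with narrow intervals, at 0.899 and 0.788.

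On chromosome 5 the 2 genes of the miR-17 seed group came much closer to their chromosome 14 relatives. Mir93 stood at 0.899 of Mir20a in replicate 1 and 0.788 in replicate 2, and at 0.362 and 0.370 of Mir17. Mir106b stood at 0.236 and 0.25 of Mir17. Mir25 lagged behind, at 0.139 and 0.192 of Mir92-1. Mir363, its seed relative on chromosome X, stood at 0.156 and 0.212 of Mir92-1, slightly above Mir25 in both libraries. Thus Mir106b and Mir93 exceeded Mir106a and Mir20b by far, while Mir25 and Mir363 were nearly level. Because the count of Mir92-1 holds only reads that could be placed, the ratios of Mir25 and Mir363 to Mir92-1 depend on read placement.

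Grouped by seed, the paralogs contributed very differently to the 4 families. In the miR-17 seed group, at 44483 and 42570 CPM in replicates 1 and 2, Mir106b and Mir93 together held 29.1% ± 0.104, Mir106a and Mir20b 2.23% ± 0.113, and Mir17 and Mir20a 68.7% ± 0.217 (n = 2). The only other gene of this seed with a row, Mir6383, had 0 counts, which allows up to 0.704 CPM in replicate 1 and 0.528 CPM in replicate 2 (3 counts, a one-sided limit, unlike the two-sided intervals). In the miR-18 seed group, Mir18b held 1.15% and 0.835%, the rest being Mir18. In the miR-19 seed group, at 64.8 and 74.1 CPM, Mir19b-2 held 5.80% (interval 3.35% to 9.24%) and 10.7% (7.90% to 14%). Mir19b-2 and Mir19b-1 share their mature sequence, so this total and these shares rest on how reads of miR-19b-3p were assigned.

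Of the 2 seed groups with genes from both paralog clusters, the miR-92 seed group was the one in which chromosome X held more than chromosome 5. At 4625 and 3572 CPM in all, it drew 15.3% and 17.4% from Mir92-2 and Mir363, and 9.51% and 12% from Mir25. Mir92-1 held 68.6% and 62.5%. Mir32 (233 ± 16.9 CPM), Mir92b (63.2 ± 27.1 CPM) and Mir367 (0 counts), which lie outside the 3 clusters, held 6.56% and 8.10% together. These shares rest on how reads of miR-92a-3p were assigned. Without Mir92-1 and Mir92-2, the group's counts came to 39.8% from Mir363 and 35.8% from Mir25.

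**Figure D3:**
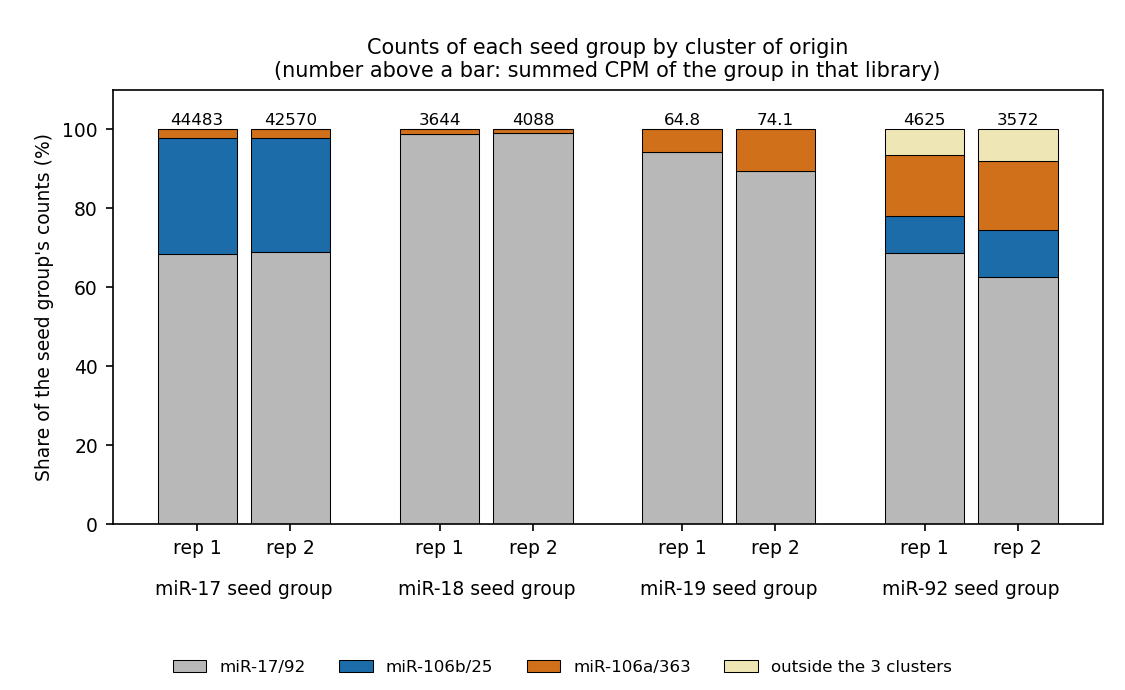
Share of the counts of each seed group, in percent, that came from each cluster, for replicates 1 and 2 separately; the number above a bar is the summed CPM of the group. The chromosome 5 cluster holds 29.1% of the miR-17 seed group, and the chromosome X cluster holds 15.3% and 17.4% of the miR-92 seed group.

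Both members with an identical mature copy kept counts of their own, and the hairpins of each pair diverge right at the 3′ end of the mature miRNA. Each hairpin is shown from 6 bases before to 6 bases after the mature sequence, with the bases outside the stretch common to both copies in capitals, read on the strand of the gene: Mir92-2 at chrX:52741848-52741880, Mir92-1 at chr14:115044470-115044502, Mir19b-2 at chrX:52741985-52742019 and Mir19b-1 at chr14:115044352-115044386.
Mir92-2: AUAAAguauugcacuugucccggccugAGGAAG
Mir92-1: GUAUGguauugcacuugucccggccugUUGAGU
Mir19b-2: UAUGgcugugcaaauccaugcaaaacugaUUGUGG
Mir19b-1: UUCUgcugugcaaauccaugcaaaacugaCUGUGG

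In both pairs 0 bases past the 3′ end of the mature miRNA are shared, so a read that runs 1 base further with the genomic base can be placed. At the 5′ end, 1 further base is shared for miR-92a and 2 for miR-19b. With this layout, Mir92-2 kept 912 and 831 counts and Mir19b-2 kept 16 and 45. Mir92-2 stood at 0.0674 of Mir92-1 in replicate 1 (interval 0.0630 to 0.0721) and 0.0655 in replicate 2 (0.0610 to 0.0703), nearly the same in both. Mir19a, whose mature sequence has no identical copy, stood at 51.9 ± 6.03 CPM. How many reads of miR-92a-3p and miR-19b-3p mapped to several loci, or were placed at the wrong copy, was not analysed here. The counts do not separate the arms of a hairpin.

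By distance of log2(CPM + 1) over the 2 libraries, the genes nearest in level to Mir93 were Mir192 (distance 0.07), Mir127 (0.08) and Mir652 (0.24). Nearest to Mir106a were Mir320 (0.04), Mir674 (0.12) and Mir503 (0.16). With 2 libraries of 1 group this likeness is one of level only.

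Between the replicates most members differed little. Each gene with at least 20 counts summed was compared by an exact two-sided binomial test, with trimmed mean of M-values (TMM) scaling and Benjamini-Hochberg adjustment over 364 genes at 0.05. This test compares 2 libraries, not conditions, and sets a ratio against counting error only. Of the 364 genes 51.9% passed, 24.5% higher in replicate 2 and 27.5% higher in replicate 1. Of the 9 members 4 passed, 3 higher in replicate 2 and 1 higher in replicate 1. The members' median log2 ratio of replicate 2 to replicate 1 was 0.04, beside -0.02 over all genes tested. At least 1.5-fold differences were reached by 16.5% of all genes and by 1 member, Mir19b-2.

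Mir92-2 was lower in replicate 2 by the exact binomial test (log2 ratio -0.42, counting error 0.07, adjusted p = 6.53e-09), and its counts fell from 912 to 831 although replicate 2 was the deeper library. Mir19b-2 was higher in replicate 2 (1.18, counting error 0.41, exact binomial adjusted p = 0.00709), on 16 and 45 counts. Both kept their direction and passed with total counts and with DESeq2 size factors in place of TMM. Mir106b (0.09) and Mir93 (0.04) passed as higher in replicate 2 under TMM, but with total counts, which shifts every log2 ratio by 0.13, they passed as higher in replicate 1 (-0.0384 and -0.0921). Mir25 (0.09, adjusted p = 0.0620), Mir363 (0.07, 0.150), Mir20b (0.02, 0.793), Mir18b (-0.17, 0.373) and Mir106a (-0.08, 0.0778) did not pass the exact binomial test under TMM. With total counts, Mir106a (-0.21) and Mir20b (-0.11) passed as higher in replicate 1.

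**Figure D4:**
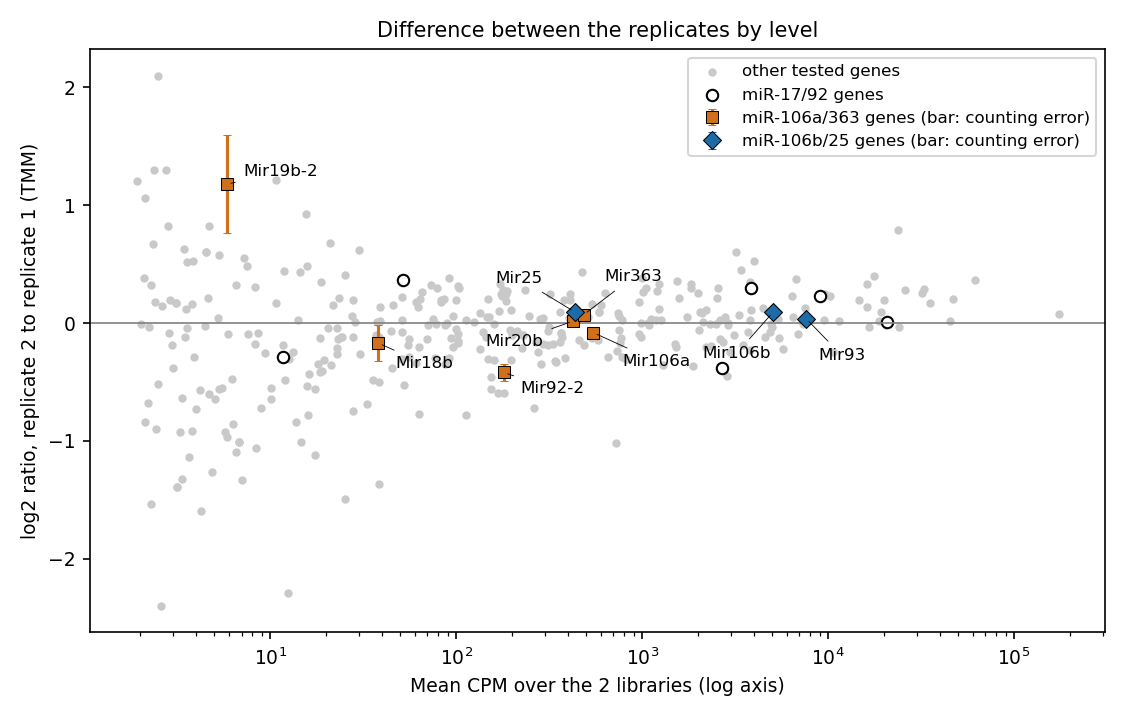
Log2 ratio of replicate 2 to replicate 1 after TMM scaling against mean CPM (log axis) for 364 tested genes; squares and diamonds are the chromosome X and chromosome 5 members with their counting error, open circles the miR-17/miR-92 genes, and grey points all others. Most members lie close to 0, with Mir92-2 at -0.42 and Mir19b-2 at 1.18.

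The lower count of Mir92-2 in replicate 2 was shared by Mir92-1 and Mir92b, the other miR-92 genes of the seed group. Mir92-1 fell by 0.38 and Mir92b fell by 0.77 on the log2 scale under TMM, and both passed, whereas Mir32 was higher by 0.28 and also passed. Mir25 and Mir363 did not pass under TMM or total counts. With DESeq2 size factors Mir25 passed the exact binomial test as higher in replicate 2 (0.11, adjusted p = 0.0238), which made 5 members called, 4 of them higher in replicate 2. Within a library, where scaling plays no part, Mir363 was 2.31 times Mir92-2 in replicate 1 (interval 2.13 to 2.5) and 3.24 times in replicate 2 (3.00 to 3.51). Mature miR-92b-3p and miR-92a-3p have the highest GC content of the group, 63.6% and 57.1%, against 50% for miR-25-3p, 40.9% for miR-363-3p and 31.8% for miR-32-5p, and miR-93-5p has 52.2%. The liver gene Mir122 was also lower in replicate 2, at 994 and 448 CPM (log2 ratio -1.02 under TMM). The 5 blood miRNAs did not move one way under TMM: Mir451a passed as lower (-0.30), Mir150 passed as higher (0.68), and Mir223 (0.03), Mir144 (-0.11) and Mir155 (-0.20) did not pass. Their summed levels were 1488 and 1289 CPM, on total counts. The epithelial sum was 10.8% and 12.3% of the counts. The part of base composition or of other tissue in the Mir92-2 difference was not tested.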

How the data were processed

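MicroRNA-seq was made from 2 pooled samples of E16.5 intestine. Per the readme of each library, the deposited values are raw counts of reads in miRNA genes of GENCODE M4 on mm10. Which aligner and counter were used is not given in the sources used here. The deposited tables hold an unstranded column and 1 column for each strand, without names. The column of the gene's strand was identified by its values (opposite-strand counts were 3.76% and 3.66% of the unstranded total). Of all reads, 19.5% and 17.2% were unmapped, 26.2% and 25.7% mapped to several loci, and 3.69% and 2.88% lay outside genes. These rows were left out of totals.

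Gene symbols were taken from GENCODE M21, also on mm10 (1894 of 1973 identifiers matched) and sequences from RefSeq GRCm38.p6. CPM, exact Clopper-Pearson intervals (scipy 1.17.1, Python 3.11.15) and ratios within a library were computed from the counts. With no second group there is no contrast for a quasi-likelihood test in edgeR, and none was run. The exact binomial test used effective library sizes from edgeR 4.0.16 (TMM) or DESeq2 1.42.0 and a prior of 0.5 counts for log2 ratios, and was tested on simulated data. The simulated counts held counting error alone, so they do not show how the test behaves when replicates vary beyond it. Per the labels the 2 libraries are biological replicates.

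All 9 members, the 6 miR-17/miR-92 genes, genes sharing a seed, and the 3 genes nearest in level to the top gene of each paralog cluster are named. Members and lists were chosen with earlier results of these data known. Alternatives were other scalings, count minimums (1 and 200), a prior of 5 counts, unstranded counts, other totals, single replicates, and genes with identical copies left out.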

Additional observations from a re-analysis of the deposited data

How the results depend on the processing

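Shares and levels moved with the total they were divided by. With the most abundant gene, Mir143, left out of the total, miR-106b/miR-25 held 1.59% and miR-106a/miR-363 0.203%. Over all reads of a library they held 0.661% and 0.0846%, and with unstranded counts miR-106b/miR-25 held 1.26%. Ratios between genes do not depend on the total and were the same with unstranded counts, since no member has opposite-strand counts. Without the genes that have identical mature copies, miR-106b/miR-25 stood at 0.388 of miR-17/miR-92, and the miR-92 seed group drew 39.8% from the chromosome X and 35.8% from the chromosome 5 cluster. Single-replicate values lie within 1 SD of the mean of 2 by construction and show nothing about stability. No paired analysis was possible because there is 1 group.

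Between the replicates, total counts gave 46 genes higher in replicate 2 and 164 in replicate 1, against 89 and 100 under TMM, and 1 and 5 members, against 3 and 1. Under total counts 5 members changed sign: Mir20b (-0.11), Mir363 (-0.0586), Mir106b (-0.0384), Mir93 (-0.0921) and Mir25 (-0.0351). Unstranded counts, and a minimum of 200 counts that drops Mir19b-2, each gave 2 members higher in replicate 1. With no count minimum 5 members were higher in replicate 2. Low counts limit Mir19b-2 and Mir18b most, and the count of Mir19b-2 also rests on read placement.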
